A study of Mus musculus with 4 samples.

Results

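Cells detect foreign or misplaced nucleic acid in the cytosol with a small set of proteins and their partners. The mRNAs of 10 such genes are described here and called sensors for short: Ddx58, Ifih1, Dhx58, Ddx60, Mavs, Cgas, Sting1, Zbp1, Eif2ak2 and Adar. Not all of them detect nucleic acid: Mavs and Sting1 pass the signal on, and Adar limits sensing. The genes were taken by symbol, and all 10 were found among the 21959 genes listed for each of 2 cell types. The cells were dendritic cells (DCs), which present antigen to T cells, and CD3+ T cells, both isolated from tumours of MC38, a mouse colon carcinoma line. The mice had received PBS or X-Ray+O-IMDQ, irradiation combined with a prodrug that the series describes as activated by radiotherapy, and cells were taken 72 h after the second dose. The labels gave 4 libraries with 1 library per group: PBS DCs, treated DCs, PBS T cells and treated T cells. The labels do not state strain, sex, age or how many mice went into a library, and neither X-ray alone nor O-IMDQ alone was analysed here.

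RIG-I (gene Ddx58) and MDA5 (gene Ifih1) are helicases that bind viral or misplaced RNA and then engage MAVS, an adaptor on mitochondria that switches on the kinases and transcription factors of the type I interferon response. DNA in the cytosol is bound by cGAS, which makes the messenger cyclic GMP-AMP, and STING receives that messenger on the endoplasmic reticulum. Many of these genes are themselves induced by interferon, so that a cell which has met interferon often carries more of the sensing machinery. In tumours, the cGAS and STING route is known for linking radiation-damaged DNA to interferon production by DCs.

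The interferon-stimulated response element, a DNA motif bound by interferon-activated factors, was searched for in promoters after several sensors were found higher together. The letters GAAANNGAAA were sought on both strands in windows from 250 bases before to 50 bases after the start site (RefSeq, build GRCm38.p6). Of the 10 sensors, 7 had a window, and the motif was present in 4 of them: Ddx58, Ifih1, Eif2ak2 and Ddx60. Of all 27025 genes with a window, 3.99% held it in at least 1 window (3.44% of 32851 windows). The stretches around each match are shown 5′ to 3′ on the gene's strand, with the matched letters in capitals.
Ddx58, chr4:40239804-40239833, minus strand: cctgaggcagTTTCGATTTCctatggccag
Ifih1, chr2:62646206-62646233, minus strand: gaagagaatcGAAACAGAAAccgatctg
Eif2ak2, chr17:78882535-78882564, minus strand: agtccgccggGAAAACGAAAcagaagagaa
Ddx60, chr8:61928024-61928087, plus strand: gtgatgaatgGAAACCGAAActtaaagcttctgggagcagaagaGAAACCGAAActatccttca
The Ddx58 match reads on the opposite strand and began 2 bases after the start site. In Ifih1 and Eif2ak2 the match began 32 and 18 bases after it. Ddx60 held a pair of identical copies that began 53 and 19 bases before the start site. No match was found in the windows of Mavs, Cgas and Adar, which says only that these letters were not in those windows. By the calls defined below, Ddx58, Eif2ak2 and Ddx60 were higher with treatment in both cell types and Ifih1 in T cells only. Without a match, Cgas and Adar were called higher in both cell types and Mavs in T cells only. Whether the motif bears on the ratios was not tested.

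The libraries held from 14056428 counts (treated DCs) to 23797357 counts (PBS DCs). With 1 library for each group, a difference is one between a pair of libraries and cannot be ascribed to the condition, no p-value is given, and intervals (95%) cover counting error only. Ratios are of counts scaled within each cell type by the trimmed mean of M-values (TMM), and a call required a difference of at least 2-fold in either direction and an interval that excluded a log2 ratio of 0. The titles number the PBS samples 2 while the read files in their descriptions carry 1, and the file names were followed. Each table held 1 further PBS library, which the labels tie to no sample and which stayed out of every value here. How far PBS libraries of 1 cell type vary is therefore not covered by any interval below. A ratio may be several-fold smaller or larger against another PBS library, in particular where the PBS count is low. This holds for every ratio below, also where no reminder stands beside it. In the DC libraries, the defining DC genes Zbtb46 and Flt3 were low, at 9 and 16 counts with PBS and 57 and 69 with treatment, while the DC integrin Itgax was at 167 and 252 CPM (counts scaled to library size). The T cell libraries carried Cd3e at 229 and 241 CPM. Many genes well counted with PBS (100 or more) were at 0 with treatment, 942 of 7856 in DCs and 342 of 8606 in T cells. Conversely, of genes at 100 or more with treatment, 213 of 6475 in DCs and 104 of 8219 in T cells were at 0 with PBS. No sensor was at 0 in any library. For other genes, a ratio that rests on few or no treated counts may likewise be much smaller against another treated library.

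Most sensors were higher in the treated library of each cell type. Among DCs, 6 of the 10 sensors were called higher and 0 lower, where 30.2% of the 10316 genes tested were called higher and 41.8% lower. Among T cells, 9 of 10 were called higher and 0 lower, where 18.3% of the 11058 genes tested were called higher and 25.4% lower. The median log2 ratio of the sensors was 1.64 in DCs, beside -0.36 for all genes tested, and 1.97 in T cells, beside -0.07. All 10 sensors passed the filter of at least 20 counts in either library in both cell types. A bulk library cannot tell more cells with a given mRNA apart from more of that mRNA in each cell.

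**Figure D1:**
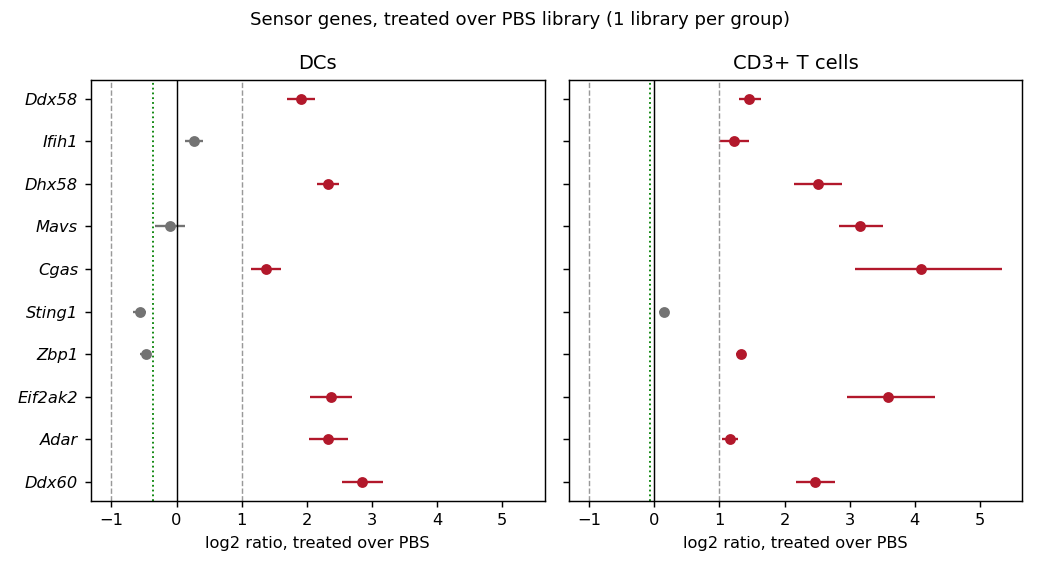
Log2 ratio of the treated over the PBS library (x axis) for each sensor (y axis) in DCs and CD3+ T cells, with 1 library per group; bars are exact conditional binomial 95% intervals, red points were called higher and grey points neither. Dashed lines mark a 2-fold difference and the dotted line the median of all genes tested, and Mavs, Zbp1 and Ifih1 are the sensors called in T cells and not in DCs.

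Among the helicases that bind RNA, Ddx58, Dhx58 and Ddx60 were higher in both treated libraries. Ddx58 (ENSMUSG00000040296, chromosome 4, 40203773 to 40239828, the table's positions, for which the processing notes name GRCm39) encodes RIG-I, which recognises RNA with a free triphosphate end. Its level in FPKM, which is scaled to gene length and depth, was 1.66 in PBS DCs, 5.99 in treated DCs, 2.99 in PBS T cells and 8.39 in treated T cells. Both treated libraries lay above both PBS libraries, and their Poisson intervals did not overlap the PBS ones. The ratio was 3.76-fold in DCs (interval 3.25 to 4.35) and 2.75-fold in T cells (interval 2.45 to 3.10).

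Dhx58 (ENSMUSG00000017830, chromosome 11, 100585710 to 100595097) encodes LGP2, a relative of RIG-I that lacks the signalling domain and tunes the other members of the family. Its level was 4.94 FPKM in PBS DCs, 23.7 in treated DCs, 1.18 in PBS T cells and 6.84 in treated T cells. The treated DC library stood far above the other 3. The log2 ratio was 2.32 in DCs (interval 2.15 to 2.49) and 2.51 in T cells (interval 2.14 to 2.89). Those ratios had overlapping intervals, and the difference between the cell types was not tested.

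Ddx60 (ENSMUSG00000037921, chromosome 8, 62381121 to 62491278), an interferon-inducible helicase linked to RIG-I signalling, was the lowest sensor in PBS DCs. It was listed at 0.523 FPKM in PBS DCs, 3.61 in treated DCs, 0.698 in PBS T cells and 3.94 in treated T cells. Its levels were thus close in the PBS libraries and close again in the treated libraries, with overlapping Poisson intervals in each case. The log2 ratio was 2.85 in DCs (interval 2.54 to 3.17), the highest of the sensors there, and 2.47 in T cells (interval 2.18 to 2.77).

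Ifih1 (ENSMUSG00000026896, chromosome 2, 62426142 to 62476599) encodes MDA5, the sensor of long RNA duplexes. It stood at 5.95 FPKM in PBS DCs, 6.87 in treated DCs, 1.44 in PBS T cells and 3.43 in treated T cells. Both DC libraries were above both T cell libraries, and the DC libraries lay 1.204-fold apart after scaling. In DCs the log2 ratio was 0.27 (interval 0.14 to 0.40), which was not called, while in T cells it was 1.23 (interval 0.996 to 1.46), which was called higher. The balance of the RIG-I family therefore differed between libraries, as seen in ratios within a library, which its own scaling factor does not enter. Dhx58 over Ifih1, in FPKM, was 0.831 in PBS DCs and 3.45 in treated DCs, and 0.820 in PBS T cells and 1.99 in treated T cells. Ddx58 over Ifih1 went from 0.280 to 0.872 between the DC libraries and from 2.08 to 2.45 between the T cell libraries.

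Mavs (ENSMUSG00000037523, chromosome 2, 131075983 to 131089945), the shared adaptor below RIG-I and MDA5, had the widest gap between its DC and T cell ratios of the 10 sensors. Its level was 5.83 FPKM in PBS DCs, 5.23 in treated DCs, 1.298 in PBS T cells and 11.8 in treated T cells. The DC libraries had overlapping intervals, whereas the T cell libraries were the lowest and the highest of the 4. The log2 ratio was -0.10 in DCs (interval -0.33 to 0.13) and 3.16 in T cells (interval 2.83 to 3.51). The T cell value rests on 81 counts with PBS and 731 with treatment. Its interval covers counting error at these counts but not the use of a single PBS library, and the ratio may be much smaller against another one.

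**Figure D2:**
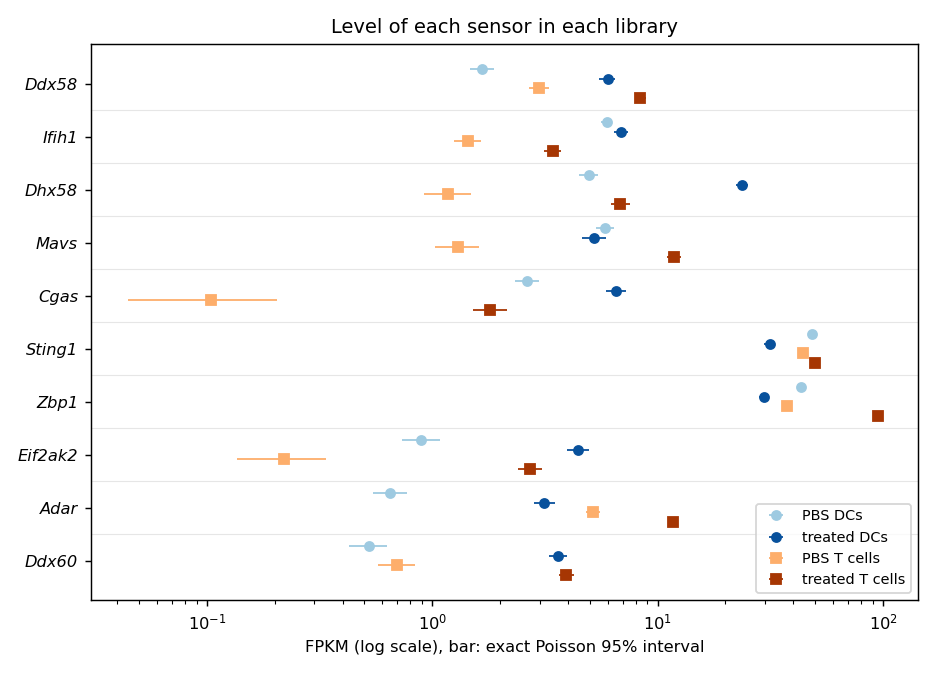
Level of each sensor in FPKM (x axis, log scale) in the 4 libraries, with exact Poisson 95% intervals that cover counting error. Sting1 and Zbp1 lie to the right of all other sensors in every library, and Cgas in PBS T cells, at 0.104 FPKM, is the lowest point.

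The DNA-sensing pair behaved unlike each other. Cgas (ENSMUSG00000032344, chromosome 9, 78337808 to 78350519), the enzyme that binds DNA, was listed at 2.64 FPKM in PBS DCs, 6.55 in treated DCs, 0.104 in PBS T cells and 1.81 in treated T cells. Each DC library exceeded each T cell library. Cgas was 2.59-fold higher in treated DCs (interval 2.20 to 3.04). In T cells the PBS library held 8 counts and the treated library 138, a ratio of 17.1-fold with a wide interval from 8.44 to 40.4. That interval covers counting error in these libraries, and the ratio may be much smaller against another PBS library.

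Sting1 (ENSMUSG00000024349), which encodes the receptor of the cGAS product, was the most abundant sensor in PBS DCs, treated DCs and PBS T cells. Its level was 48.5 FPKM in PBS DCs, 31.4 in treated DCs, 44.3 in PBS T cells and 50.05 in treated T cells. These 4 values lie close together compared with those of the other sensors. The log2 ratio was -0.57 in DCs (interval -0.66 to -0.47) and 0.15 in T cells (interval 0.07 to 0.23), and neither was called. Sting1 was the sensor called in neither cell type. Sting1 over Cgas, in FPKM, was 18.4 in PBS DCs and 4.80 in treated DCs, and 426 in PBS T cells and 27.6 in treated T cells.

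Zbp1 (ENSMUSG00000027514, chromosome 2, 173048405 to 173060716) encodes a sensor of Z-form nucleic acid that can start necroptosis through RIPK3. It was at 43.1 FPKM in PBS DCs, 29.8 in treated DCs, 37.3 in PBS T cells and 95.4 in treated T cells. The treated DC library was the lowest of the 4 and the treated T cell library the highest value of any sensor. In T cells Zbp1 was 2.51-fold higher with treatment (interval 2.39 to 2.63). In DCs the log2 ratio was -0.48 (interval -0.56 to -0.39), which was not called.

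Eif2ak2 (ENSMUSG00000024079, chromosome 17, 79159993 to 79190002) encodes PKR, a kinase that stops translation when it binds RNA duplexes. Its level was 0.896 FPKM in PBS DCs, 4.44 in treated DCs, 0.220 in PBS T cells and 2.71 in treated T cells. Both treated libraries were above both PBS libraries, with no overlap of the Poisson intervals. The ratio was 5.16-fold in DCs (interval 4.14 to 6.48) and 12.1-fold in T cells (interval 7.74 to 19.9), the latter from 21 counts with PBS and 256 with treatment. As for Cgas, the T cell ratio depends on the few counts of 1 PBS library and may be much smaller against another.

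Adar (ENSMUSG00000027951, chromosome 3, 89622329 to 89660753) encodes ADAR1, which edits adenosine to inosine in RNA duplexes and so keeps the cell's own RNA from being sensed. It was listed at 0.652 FPKM in PBS DCs, 3.15 in treated DCs, 5.15 in PBS T cells and 11.7 in treated T cells. Both T cell libraries were above both DC libraries, which held for no other sensor. Adar was 5.03-fold higher in treated DCs (interval 4.09 to 6.21) and 2.23-fold higher in treated T cells (interval 2.05 to 2.43). The DC ratio rests on 126 counts in 1 PBS library and may likewise be much smaller against another. PBS counts were lower still for Ddx60 (108) and Eif2ak2 (109) in DCs and for Dhx58 (72) and Ddx60 (113) in T cells. The same caution applies to those ratios. The gene overlaps the listed position of Chrnb2 on the opposite strand, and no source used here says whether reads were counted by strand. The tables do not separate the interferon-inducible isoform of ADAR1 from the constitutive one.

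As a set, sensor mRNA was dominated by Sting1 and Zbp1. Together they made up 79.9% of the summed sensor FPKM in PBS DCs and 86.2% in PBS T cells. In treated DCs their share was 50.7%, with Dhx58 at 19.6% compared with 4.31% in PBS DCs. In treated T cells it was 74.2%, where Zbp1 alone made up 48.6%. The summed level was 115 FPKM in PBS DCs and 121 in treated DCs, and 94.7 in PBS T cells and 196 in treated T cells. From the lowest to the highest sensor the levels spanned 92.8-fold in PBS DCs and 9.99-fold in treated DCs, and 426-fold in PBS T cells and 52.7-fold in treated T cells.

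**Figure D3:**
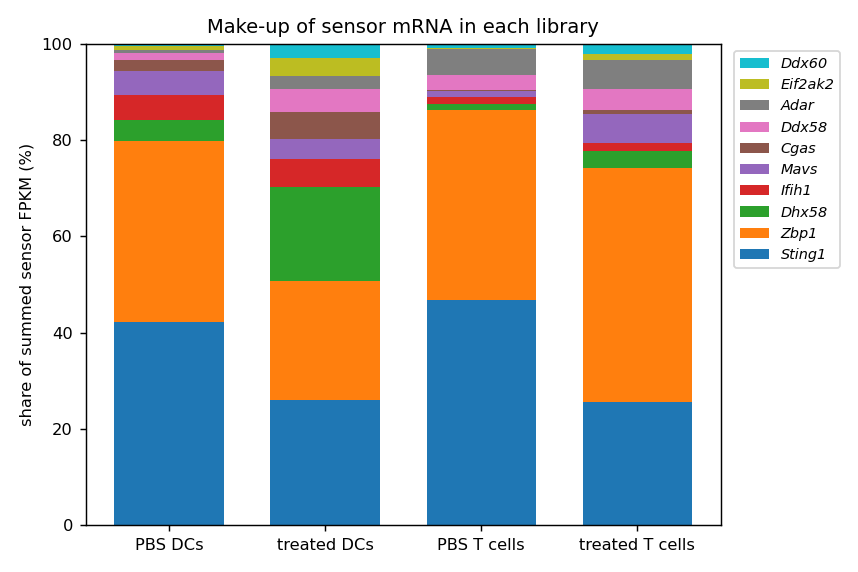
Share of the summed sensor FPKM (y axis, percent) taken by each sensor in the 4 libraries. Sting1 and Zbp1 fill 79.9% of the PBS DC bar and 50.7% of the treated DC bar, where Dhx58 takes 19.6%.

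In order of level, PBS DCs ran Sting1, Zbp1, Ifih1, Mavs, Dhx58, Cgas, Ddx58, Eif2ak2, Adar and Ddx60. Neighbours whose Poisson intervals overlapped there were Ifih1 and Mavs, Mavs and Dhx58, Eif2ak2 and Adar, and Adar and Ddx60. In treated DCs Dhx58 followed Sting1 and Zbp1, and 7 of the neighbouring pairs overlapped, Sting1 and Zbp1 among them. PBS T cells ran Sting1, Zbp1, Adar, Ddx58, Ifih1, Mavs, Dhx58, Ddx60, Eif2ak2 and Cgas, with overlap for Ifih1 and Mavs, Mavs and Dhx58, and Eif2ak2 and Cgas. In treated T cells the order began Zbp1, Sting1, Mavs and Adar, and the overlapping neighbours were Mavs and Adar, and Ddx60 and Ifih1.

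Other genes of these pathways were read from 6 lists of 87 genes. In DCs 81 of them passed the filter, of which 33 (40.7%) were called higher and 24 (29.6%) lower, beside 30.2% and 41.8% of all genes tested, with a median log2 ratio of 0.62. In T cells 84 passed, of which 27 (32.1%) were called higher and 11 (13.1%) lower, beside 18.3% and 25.4% of all genes tested, with a median of 0.25. The shares over all genes stand beside each list's count below as well, and no list was tested against them.

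A list of 17 genes in or around RIG-I, MAVS and STING signalling had 8 (47.1%) called higher and 3 (17.6%) lower in DCs. The shares over all genes tested were 30.2% and 41.8% there. In T cells 7 (41.2%) were higher and 2 (11.8%) lower, beside 18.3% and 25.4% of all genes tested. Irf7, the transcription factor that amplifies interferon production, had log2 ratios of 2.17 in DCs and 2.09 in T cells. Zc3hav1, the antiviral zinc-finger protein that binds RNA, had 0.98 and 0.89, and neither was called. Rnf135, the ubiquitin ligase that activates RIG-I, was 5.03-fold higher in treated T cells, where Traf3, an adaptor below MAVS, was 4.13-fold higher. In DCs Tbkbp1, an adaptor of the kinase TBK1, was 81.1-fold higher, from 36 counts to 1655. Trim56, a ubiquitin ligase of the cGAS and STING route, was 6.46-fold higher there. Trim32, a ubiquitin ligase that acts on STING, went from 0 to 127 counts in DCs, at least 59.9-fold higher by the interval bound (74.7-fold with the PBS library set to a floor of 3 counts). In T cells the same gene went from 37 counts to 0, at least 9.62-fold lower (12.4-fold at that floor).

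Genes lower in treated DCs included Tank, a scaffold of the kinase TBK1, which went from 982 counts to 3, at a log2 ratio of -7.54 (interval -9.82 to -5.98). Ticam1, the adaptor of TLR3, went from 237 counts to 0 and Stim1, a calcium sensor that holds STING at the endoplasmic reticulum, from 213 to 0. These were at least 36.1-fold and 32.4-fold lower (44.8-fold and 40.2-fold at the floor of 3 counts). Tank was also lower in treated T cells, at a log2 ratio of -1.08. The median of this signalling list was 0.98 in DCs and 0.47 in T cells, and in DCs it was 1.72 over the 13 members with at least 20 counts in both libraries. Of these 13, 7 were called higher and 0 lower. The lower calls of Tank, Ticam1 and Stim1 in DCs thus rest on 3, 0 and 0 counts in 1 treated library.

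Brakes on sensing had 7 of 14 tested genes (50%) called higher and 2 (14.3%) lower in DCs, beside 30.2% and 41.8% of all genes tested. In T cells 5 of 16 (31.25%) were higher and 2 (12.5%) lower, beside 18.3% and 25.4%. Usp18, which shuts off interferon receptor signalling, was 22.3-fold higher in treated T cells, and its log2 ratio of 0.79 in DCs was not called. Trim21, a ubiquitin ligase and antibody receptor, was 14.0-fold higher in treated T cells, from 24 counts to 340. In DCs Trim21 rose from 3 counts to 319, a log2 ratio of 7.55 (interval 5.99 to 9.84). Tnfaip3, which encodes the NF-kB inhibitor A20, was 5.31-fold higher in treated DCs and had a log2 ratio of 0.32 in T cells. Itch, a ubiquitin ligase that targets MAVS, was 9.96-fold higher in treated DCs and had a log2 ratio of -1.47 in T cells. Lower in treated DCs were Rnf5, a ubiquitin ligase for STING and MAVS, at -3.52 and the autophagy gene Atg5 at -1.42, and lower in treated T cells was Atg12 at -1.35. Banf1, which competes with cGAS for DNA, was abundant and had log2 ratios of -0.98 and -0.35. Nlrx1, a mitochondrial inhibitor of MAVS, had 0 counts in PBS T cells and 30 in treated T cells, at least 7.57-fold higher (9.91-fold at the floor).

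Nucleases and transporters had 4 of 14 (28.6%) higher and 5 (35.7%) lower in DCs, near the shares of 30.2% and 41.8% over all genes tested. In T cells 3 of 15 (20%) were higher and 2 (13.3%) lower, beside 18.3% and 25.4% of all genes tested. Samhd1, which degrades nucleotides, was abundant, at log2 ratios of 0.08 and 0.85. Pld4, a lysosomal nuclease, was lower in both treated libraries, at -1.87 in DCs and -1.41 in T cells, and its relative Pld3 had a log2 ratio of 0.48 in T cells. Rnaseh2a and Rnaseh2b, subunits of the enzyme that clears RNA from DNA, had log2 ratios of -2.88 and 1.89 in DCs. Dnase1l3, a secreted nuclease, had -2.47 in DCs and 2.13 in T cells. Slc19a1, a carrier of cyclic dinucleotides, was 4.55-fold higher in treated DCs, and Lrrc8a, a subunit of the volume-regulated channel that passes them, 2.44-fold higher in treated T cells. Ttc37, a partner of the cytosolic RNA exosome, had 4 counts in PBS DCs and 106 in treated DCs and was 3.94-fold higher in treated T cells. Rnaset2b had 63 counts in PBS T cells and 3 in treated T cells, a log2 ratio of -4.41 (interval -6.72 to -2.79), and it has a close copy, Rnaset2a, so its reads may be split. Trex1, the main cytosolic DNA exonuclease, was listed at 0 in all 4 libraries.

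**Figure D4:**
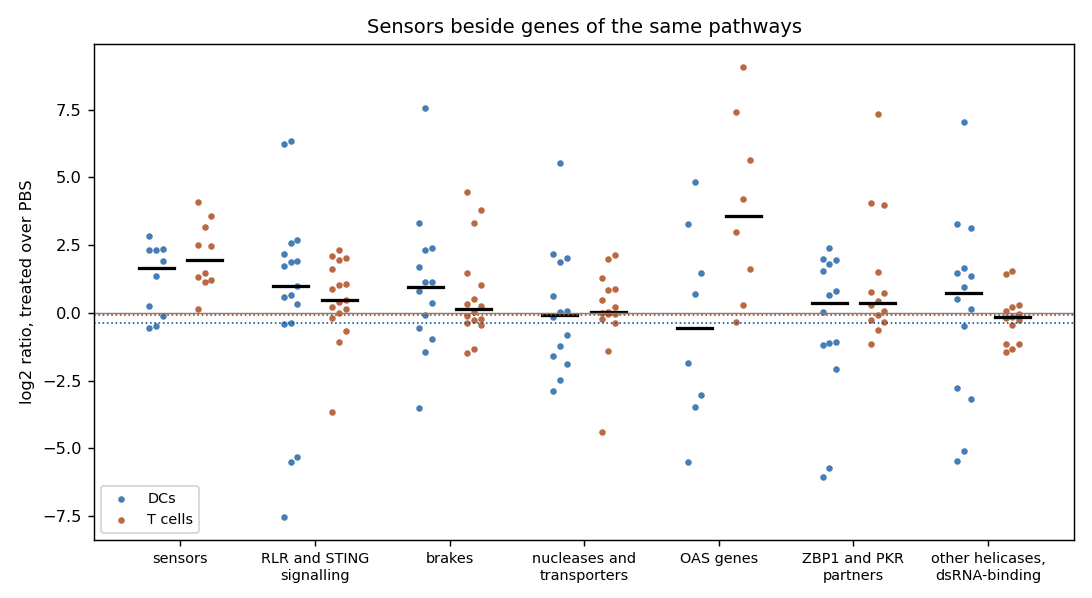
Log2 ratio of the treated over the PBS library (y axis) for each tested gene of the sensors and 6 pathway lists (x axis), with DCs in blue and T cells in orange; black bars are list medians, dotted lines the median of all genes tested, and a gene at 0 in 1 library is drawn at the floor of 3 counts. The sensors reach from -0.57 to 2.85 in DCs and from 0.15 to 4.10 in T cells.

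The OAS genes encode enzymes that make short adenylate chains when they bind RNA duplexes. At the filter of 20 counts in either library, they were the pathway list with the most calls for its size in T cells. There 6 of 8 (75%) were called higher and 0 lower, beside 18.3% and 25.4% of all genes tested, with a median log2 ratio of 3.60. Oasl1, Oas2 and Oas1g had 0 counts in PBS T cells and Oasl2 had 1. These genes passed the filter through the treated library alone and could only be called higher. Over the 4 members with at least 20 counts in both libraries, 2 were called higher and 0 lower, and the median was 0.97. Oasl1 had 513 counts in treated T cells, at least 137-fold higher (169-fold at the floor), and Oas2 had 151, at least 40.1-fold higher (49.9-fold at the floor). Oasl2 went from 1 count to 551, a log2 ratio of 9.09 (interval 6.61 to 14.4), and Oas1a had a log2 ratio of 4.20. In DCs the list was divided, with 3 of 8 (37.5%) higher and 4 (50%) lower, beside 30.2% and 41.8% of all genes tested. Its median there was -0.57, and 1.09 over the 6 members with at least 20 counts in both libraries, of which 3 were higher and 2 lower. Oas3, Oas2 and Oasl1 were higher in treated DCs, at 4.82, 3.27 and 1.47. Oas1a and Oas1g were lower, at -1.84 and -3.03, and Oas1b and Oas1c went from 59 and 239 counts to 0, at least 8.78-fold and 36.4-fold lower (11.1-fold and 45.2-fold at the floor). Oasl2 had a log2 ratio of 0.70 in DCs. The Oas1 genes are near-identical copies of each other, so reads may be split between them.

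Partners of ZBP1 and PKR had 5 of 14 (35.7%) higher and 6 (42.9%) lower in DCs, near the shares of 30.2% and 41.8% over all genes tested. In T cells 4 of 14 (28.6%) were higher and 1 (7.14%) lower, beside 18.3% and 25.4%. Ripk1, a kinase that controls cell death, was 15.7-fold higher in treated T cells, from 32 counts to 507. Fadd, the adaptor for caspase-8, had a log2 ratio of -1.13 there. Eif2ak1, a relative of PKR that answers haem shortage, was higher in both treated libraries, by 5.29-fold in DCs and 16.7-fold in T cells. The T cell ratio rests on 25 counts with PBS and 421 with treatment. Prkra, an activator of PKR, had 833 counts in PBS DCs and 9 in treated DCs, a log2 ratio of -5.71, and in T cells it went from 0 counts to 497, at least 133-fold higher (164-fold at the floor). Eif2s1, the translation factor that PKR phosphorylates, had a log2 ratio of -2.08 in DCs. Eif2ak3, the endoplasmic reticulum member of the kinase family, had 116 counts in PBS DCs and 1 in treated DCs, a log2 ratio of -6.04 (interval -11.4 to -3.53). Atf4, a transcription factor whose translation increases when the product of Eif2s1 is phosphorylated, was 3.53-fold higher in treated DCs and had 0.46 in T cells. Ppp1r15a and Ppp1r15b, subunits of the phosphatase that reverses the phosphorylation, had log2 ratios of -1.12 and 1.96 in DCs. In T cells Ppp1r15a had 0.74.

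Other RNA helicases and RNA-duplex-binding genes were a reference for the sensor helicases. In DCs 6 of 14 (42.9%) were higher and 4 (28.6%) lower, beside 30.2% and 41.8% of all genes tested. In T cells 2 of 14 (14.3%) were higher and 4 (28.6%) lower, near the shares of 18.3% and 25.4%. Dhx9, a nuclear helicase of RNA and DNA, was 9.73-fold higher in treated DCs, from 29 counts to 160. Dhx15, a splicing helicase, had log2 ratios of 1.66 in DCs and 0.08 in T cells. Ddx41, a helicase reported to sense DNA, had -3.18 in DCs and -0.14 in T cells. Dhx36, which unwinds quadruplex structures, had -5.09 in DCs and 1.56 in T cells, and Dhx33 had 1.46 in T cells. Tarbp2, a partner of Dicer, had -5.48 in DCs, and Dicer1 itself had 12 counts in PBS DCs and 60 in treated DCs. Adarb1, another RNA-editing enzyme of the ADAR family, had 0 counts in PBS DCs and 224 in treated DCs, at least 106-fold higher (132-fold at the floor), and a log2 ratio of -1.45 in T cells. In T cells Ddx1 and Ddx3x were lower, at -1.13 and -1.14.

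Markers of several cell types also differed between the DC libraries. Call counts here are out of the genes present in a list, some with too few counts to be tested. Over all genes tested, 30.2% were called higher and 41.8% lower in DCs, and 18.3% and 25.4% in T cells. No marker list was tested against these shares. B cell, erythroid, fibroblast, endothelial and epithelial markers are not described. The conventional DC markers summed to 60479 CPM with PBS and 8128 CPM with treatment, with 3 of 8 higher and 3 lower. H2-Ab1, at 49192 and 5892 CPM, and Cd74, at 10707 and 1873 CPM, made up most of these sums, while Zbtb46, Flt3 and Clec9a were the 3 called higher. Macrophage markers summed to 7744 and 1762 CPM, with 0 of 9 higher and 5 lower. Monocyte markers were close in the DC libraries, at 707 and 700 CPM, with 0 of 5 higher and 1 lower. Markers of plasmacytoid DCs, cells known for strong interferon production, summed to 207 and 440 CPM, with 2 of 5 higher and 1 lower. Bst2, at 194 and 406 CPM, made up most of these sums, and the defining gene Siglech was at 0 in the treated library. NK cell markers summed to 260 and 378 CPM, with 2 of 5 tested, 1 higher, 0 lower, and Ncr1 and Klra8 at 0 in both libraries. Klrk1, at 260 and 368 CPM and not called, made up nearly all of these sums. Neutrophil markers summed to 22.1 and 91.7 CPM, with 3 of 6 tested, 2 higher, 1 lower, and S100a9, Ly6g and Retnlg at 0 in both. T cell markers summed to 92.3 and 93.6 CPM in the DC libraries, with Cd3e at 0 in both, but members went opposite ways. Of 7, 3 were higher and 3 lower, among them Cd3d from 434 to 812 counts and Cd3g from 576 to 1. The T cell libraries were closer, with T cell markers at 10256 and 10954 CPM (1 of 7 higher, 0 lower), macrophage markers at 255 and 272 CPM (0 of 9 higher, 3 lower) and monocyte markers at 1941 and 2726 CPM (1 of 5 higher, 2 lower). Ly6c2, at 1764 and 2591 CPM and not called, made up most of the monocyte sums in the T cell libraries. Fcgr1 was the monocyte marker called higher there, and Vcan and F13a1 were those called lower. The part of these cell markers in the sensor values was not tested.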

How the data were processed

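The deposited tables, 1 per cell type, hold read counts per gene, which the authors left as raw whole numbers, and FPKM, which the authors scaled to the listed gene length in bases and to each library's total count. FPKM equalled the count scaled in this way within a relative difference of 2.04e-07. Build GRCm39 and the tools RSEM 1.2.12, HISAT2 2.0.4, R 3.3.1 and DESeq2 1.24.0 are named in the submitters' processing notes, without their roles. Per the labels' protocols, BGI extracted the RNA and made the libraries. Columns were assigned to samples through the names of read files given in the descriptions, and 2 PBS libraries (4 columns) that matched no sample were not used here.

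Scaling used TMM from edgeR 4.0.16 (R 4.3.3), separately for DCs and T cells. Treated over PBS ratios carry exact conditional binomial (Clopper-Pearson) 95% intervals and FPKM levels exact Poisson ones (scipy 1.17.1). A library at 0 was set to 3 counts, or 0.126, 0.213, 0.161 and 0.162 CPM in PBS DCs, treated DCs, PBS T cells and treated T cells. Genes with a symbol and at least 20 counts in either library were tested. The ratio and call were tried on simulated counts with counting error only, scaled by library totals. Variation between libraries was not simulated. With 1 library per group no test with a p-value was possible. Intervals and floors treat reads as independent molecules, which PCR copies lacking molecular identifiers are not.

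The sensors and lists were chosen with earlier results of these data known. Ddit3, whose symbol is shared by more than 1 listed gene, was left out of its list, and 1 further gene is not reported here. Named genes were all sensors and, from each pathway list and cell type, the 2 most abundant and up to 3 called in each direction with the interval bound furthest from 0. Oas1g in T cells, Trex1, Rnaset2a and the value of a named gene in the other cell type were added after they were seen, as were single marker genes. Alternatives were size factors of DESeq2 1.42.0, upper-quartile factors, total counts, the deposited FPKM, centring on all genes, TMM without ribosomal, mitochondrial and receptor genes, other count minimums (1, 100, and 20 in both libraries), 1.5-fold and 4-fold thresholds, log2(CPM + 1), and removal of a trend on gene length (statsmodels 0.14.6). The deposited FPKM gives the same ratios as total counts, so it was computed from them and adds no separate check.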

Additional observations from a re-analysis of the deposited data

Results flagged for a closer look

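Mavs and Zbp1 were called higher in treated T cells and had a log2 ratio below 0 in treated DCs. For Mavs the log2 ratio in T cells exceeded that in DCs by 3.26, from -0.10 in DCs to 3.16 in T cells. For Zbp1 it did so by 1.801, from -0.48 in DCs to 1.33 in T cells. With 1 library per group the difference between cell types was not tested. The DC value was not called for either gene, and for Mavs its interval included 0. The T cell value of Mavs rests on 81 counts in 1 PBS library, and this difference may not hold against another.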

How the results depend on the processing

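Each value was recomputed under 13 alternatives, of which total counts and the deposited FPKM give identical values. With a gene-length trend removed, 3 uncalled sensors changed sign in DCs: Ifih1 to -0.20, Mavs to 0.38 and Sting1 to 0.19. The 6 sensors called higher in DCs stayed called in every alternative except the 4-fold threshold, which Ddx58 at 1.91 and Cgas at 1.37 missed. In T cells that threshold left 5 sensors called higher and was missed by Ddx58 (1.46), Ifih1 (1.23), Zbp1 (1.33) and Adar (1.16). It left 18 pathway genes higher in DCs, and 15 higher and 2 lower in T cells. Of all genes it left 1922 rather than 3112 higher in DCs, and in T cells 1003 rather than 2025 higher and 1774 rather than 2805 lower. Cgas in T cells had under 20 counts with PBS, so a minimum of 20 counts in both libraries left it untested; that minimum left 14 pathway genes lower in DCs, and of all genes 1825 lower in DCs and 1378 in T cells. It gave list medians of 1.72 for signalling and 1.09 (against -0.57) for OAS genes in DCs and of 0.97 for OAS genes in T cells. Upper-quartile scaling gave medians of 1.03 for signalling and 1.02 for brakes in DCs. The brake median was 1.16 with a minimum of 1 count and 1.15 with 100, and the OAS median in DCs 0.70 with 100. The nuclease median in T cells, 0.02, became -0.076 with upper-quartile scaling and -0.013 with centring on all genes. Centring lowered all DC ratios by 0.20. Samhd1 in DCs had -0.13 with centring and -0.57 with the length trend removed, and Dhx15 in T cells -0.018 with upper-quartile scaling. Atg5 (-0.59) and Ppp1r15a (-0.44) in DCs lost their calls with the length trend removed, as did Tank (-0.98) and Fadd (-0.97) in T cells with log2(CPM + 1). Banf1 in DCs became called lower with total counts (-1.04), DESeq2 factors (-1.003), centring (-1.18) and log2(CPM + 1) (-1.03). Zc3hav1 in DCs became called higher with upper-quartile scaling (1.03). The fold threshold does not enter a median, so medians have no value for it. No paired analysis was possible because each group has 1 library, and the groups compared share no replicate number in the titles. Depth limits Cgas and Eif2ak2 in PBS T cells most, at 8 and 21 counts.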
